A study of Mus musculus with 12 samples.

Results

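The 9 genes of striatal projection neurons described here, of the 46603 genes in the count tables, were followed through RNA-seq libraries of developing mouse cortex. They are Drd1, Drd2, Adora2a, Ppp1r1b, Penk, Tac1, Pde10a, Rgs9 and Ebf1, taken by gene symbol, and they were chosen by how their levels moved together from library to library in these same data, at both stages and in both genotypes. The levels per library and the P5 genotype difference are therefore given as a description, and nothing is supported with them. The libraries came from cortex microdissected from mice heterozygous for a null allele of Chd8, an ATP-dependent chromatin remodeller gene, and from Chd8+/+ controls. The groups were E12.5 Chd8+/+, E12.5 Chd8+/-, P5 Chd8+/+ and P5 Chd8+/-, with 3 libraries each and 12 in all. The Chd8- allele was a germline deletion of exon 3, made with a ubiquitous β-actin Cre that was then bred out, so every cell of a Chd8+/- animal carries it. Mice were on a C57Bl/6J background, tissue was taken from embryos at E12.5 and from pups at P5, and both hemispheres were used at E12.5 but 1 at P5. The labels do not say that each library is a different animal, so p-values measure the spread between these libraries only.

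Medium spiny neurons are the GABAergic projection neurons of the striatum, and they are born in the lateral ganglionic eminence, beneath the cortex. Neurons of the direct pathway carry the D1 dopamine receptor and make the peptide precursor encoded by Tac1, and those of the indirect pathway carry the D2 dopamine receptor and the adenosine receptor encoded by Adora2a and make enkephalin. Both kinds use cyclic AMP as the second messenger, which Pde10a breaks down and which acts in part through the phosphoprotein DARPP-32. Several of these genes are also used outside the striatum, such as Drd1, Penk and Tac1 in cortical neurons.

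The annotated start sites of the members that entries exist for were read from RefSeq (GRCm38.p6), as windows of 300 bases running from 250 before the start to 50 after it. Entries matched 6 of the 9 members, with 9 start sites, and Penk, Adora2a and Ppp1r1b had no entry. Shown are Drd1 and Drd2, the receptors that tell the neuron classes apart, and Tac1, the peptide gene of the direct pathway. Drd1 had another start site, whose window is not shown. Each window shown is written along the gene's own strand, and capitals mark the matches, on either strand, to the motifs searched. The letters TGACG were taken as the core of a cyclic AMP response element. A GC box was read as GGGCGG wherever it occurred. For the TATA box the letters were TATAAA only. The core recognised by Ebf1 and its relatives was read as CCCNNGGG, where N is any base.
Drd1, chr13:54055609-54055908, minus strand: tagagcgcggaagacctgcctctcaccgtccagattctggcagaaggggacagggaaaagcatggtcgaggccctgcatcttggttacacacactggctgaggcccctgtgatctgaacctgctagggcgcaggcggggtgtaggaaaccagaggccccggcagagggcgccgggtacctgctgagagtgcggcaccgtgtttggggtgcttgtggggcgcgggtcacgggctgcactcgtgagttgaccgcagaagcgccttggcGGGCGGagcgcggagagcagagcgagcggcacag
Drd2, chr9:49340153-49340452, plus strand: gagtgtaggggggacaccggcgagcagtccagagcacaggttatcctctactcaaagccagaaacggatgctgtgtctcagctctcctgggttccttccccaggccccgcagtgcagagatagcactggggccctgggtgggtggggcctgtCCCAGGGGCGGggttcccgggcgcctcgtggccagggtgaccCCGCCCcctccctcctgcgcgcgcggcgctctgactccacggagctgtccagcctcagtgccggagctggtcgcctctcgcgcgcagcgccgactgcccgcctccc
Tac1, chr6:7554811-7555110, plus strand: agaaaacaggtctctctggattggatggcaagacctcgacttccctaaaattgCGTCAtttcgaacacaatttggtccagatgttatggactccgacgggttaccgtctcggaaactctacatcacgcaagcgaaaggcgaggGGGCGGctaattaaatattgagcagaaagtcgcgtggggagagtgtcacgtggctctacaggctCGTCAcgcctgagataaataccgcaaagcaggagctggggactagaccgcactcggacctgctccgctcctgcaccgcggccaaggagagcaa
The Drd1 window shown held 1 match, a GC box, as did the other Drd1 window. The Drd2 window held 2 GC boxes and 1 Ebf1-type core, which overlaps 1 of the GC boxes. The Tac1 window held 2 TGACG matches, at -197 and -43 from the start site, and 1 GC box. Over all windows of this length in the table (32851), 35.7% held GGGCGG, 20.8% held TGACG, 13.7% held CCCNNGGG and 13.6% held TATAAA. Of the 9 windows of the members, 7 held GGGCGG, 2 held TGACG, 1 held CCCNNGGG and 1 held TATAAA. These matches are letters in a window and not sites that were measured.

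The libraries held between 38774591 and 54695236 counts. Chd8 itself, the check of the labels, stood at 143 to 148 CPM (counts scaled to a common library size) in P5 Chd8+/+ and at 94.1 to 97.7 in P5 Chd8+/-, and at 233 to 238 against 164 to 169 at E12.5. The whole gene was counted, so reads from the exons outside the deletion still add to these values. It was the only gene that edgeR's quasi-likelihood test called between genotypes at either stage (Benjamini-Hochberg adjusted p = 0.0056 at E12.5 and 0.0001 at P5). Cortical excitatory neuron markers marked the labelled tissue, with 8 genes summing to between 1180 and 1322 CPM in the P5 libraries and between 424 and 644 CPM at E12.5. The E12.5 libraries also held genes of the ganglionic eminences, with mean levels in Chd8+/+ of 242 CPM for Dlx1, 130 for Dlx2, 46.9 for Isl1, 85.7 for Nkx2-1 and 13.7 for Gsx2.

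At P5 all 9 genes were lower in every Chd8+/- library than in every Chd8+/+ library, by between 13.2% (Rgs9) and 40.5% (Ebf1) of the Chd8+/+ mean. Over all 18666 genes tested at P5, 12.2% were lower without overlap in this way. Because the members were chosen on these libraries, nothing is read from that contrast. In whole tissue, fewer cells of a type and less RNA per cell cannot be told apart. All levels below, unless stated, are CPM scaled by the trimmed mean of M values (TMM) within a stage.

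The dopamine and adenosine receptors come first. Drd1 (chr13:54051186-54055658, minus strand), the D1 receptor that raises cyclic AMP, stood at 26.7, 27.5 and 25.5 CPM in the Chd8+/+ libraries and at 18.3, 22.6 and 20.8 in the Chd8+/- libraries. Replicate 1 of Chd8+/- was the lowest and the groups did not overlap. The means were 26.6 ± 1.02 and 20.6 ± 2.13 (SD, n = 3 each), and the fitted log2 difference was -0.37 ± 0.07 (SE). Drd2 (chr9:49340662-49407214, plus strand), the D2 receptor that lowers cyclic AMP, was at 9.48, 10.5 and 9.29 CPM against 6.29, 8.74 and 8.79. Replicates 2 and 3 of Chd8+/- lay within 1 CPM of the lowest Chd8+/+ library, so the gap between the groups was narrow, and the log2 difference of -0.30 ± 0.12 was -0.15 without replicate 1. Adora2a (chr10:75316943-75334788, plus strand), the adenosine receptor of the indirect pathway, was at 26.9, 28.9 and 26.8 CPM against 20.2, 22.8 and 23.9, a log2 difference of -0.30 ± 0.07.

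The neuropeptide precursors follow. Penk (chr4:4133531-4138819, minus strand), the enkephalin precursor, was measured at 44.5, 49.97 and 46.2 CPM in Chd8+/+ and at 30.1, 38.7 and 38.2 in Chd8+/-. Replicate 1 of Chd8+/- again was lowest, at 64.2% of the Chd8+/+ mean, and the log2 difference was -0.39 ± 0.09. Tac1 (chr6:7554879-7565834, plus strand), the precursor of substance P and neurokinin A, was at 21.6, 24.4 and 24.4 CPM against 16.7, 19.3 and 21.0. The highest Chd8+/- library and the lowest Chd8+/+ library were less than 1 CPM apart, and the log2 difference was -0.30 ± 0.09. Of the exon bases of Penk, 14.3% are shared with an antisense gene, A830012C17Rik, and the counting command of the P5 table set no strand option, so reads over those bases cannot be assigned between the pair.

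The next members act in signalling inside the cell. Pde10a (chr17:8525372-8986648, plus strand), the phosphodiesterase abundant in medium spiny neurons, was at 167, 185 and 178 CPM in Chd8+/+ and at 105, 142 and 127 in Chd8+/-. All Chd8+/- libraries were well below the lowest Chd8+/+ library, and the log2 difference was -0.50 ± 0.09. Ppp1r1b (chr11:98348404-98357796, plus strand), which encodes DARPP-32, was at 88.3, 96.3 and 89.0 CPM against 67.2, 81.3 and 79.9, with a log2 difference of -0.26 ± 0.07. It shares 15.7% of its exon bases with the antisense gene 1700003D09Rik. Rgs9 (chr11:109225355-109298129, minus strand), whose protein speeds the switching off of G proteins, was at 35.03, 37.9 and 38.3 CPM against 32.2, 32.6 and 31.7. The Chd8+/- libraries of Rgs9 lay close together, replicate 1 was not the lowest, and the log2 difference of -0.20 ± 0.05 was the smallest of the 9.

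Ebf1 (chr11:44617317-45008091, plus strand), a transcription factor used by immature direct pathway neurons and by blood vessel and lymphoid cells, was at 9.26, 9.55 and 9.31 CPM in Chd8+/+ and at 4.29, 6.83 and 5.61 in Chd8+/-. The Chd8+/+ libraries were close together (SD 0.154 CPM), whereas the Chd8+/- libraries spread over a wider range (SD 1.27). The log2 difference of -0.75 ± 0.14 was the largest of the 9. An unnamed gene on the same strand shares 4.64% of its exon bases.

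**Figure D1:**
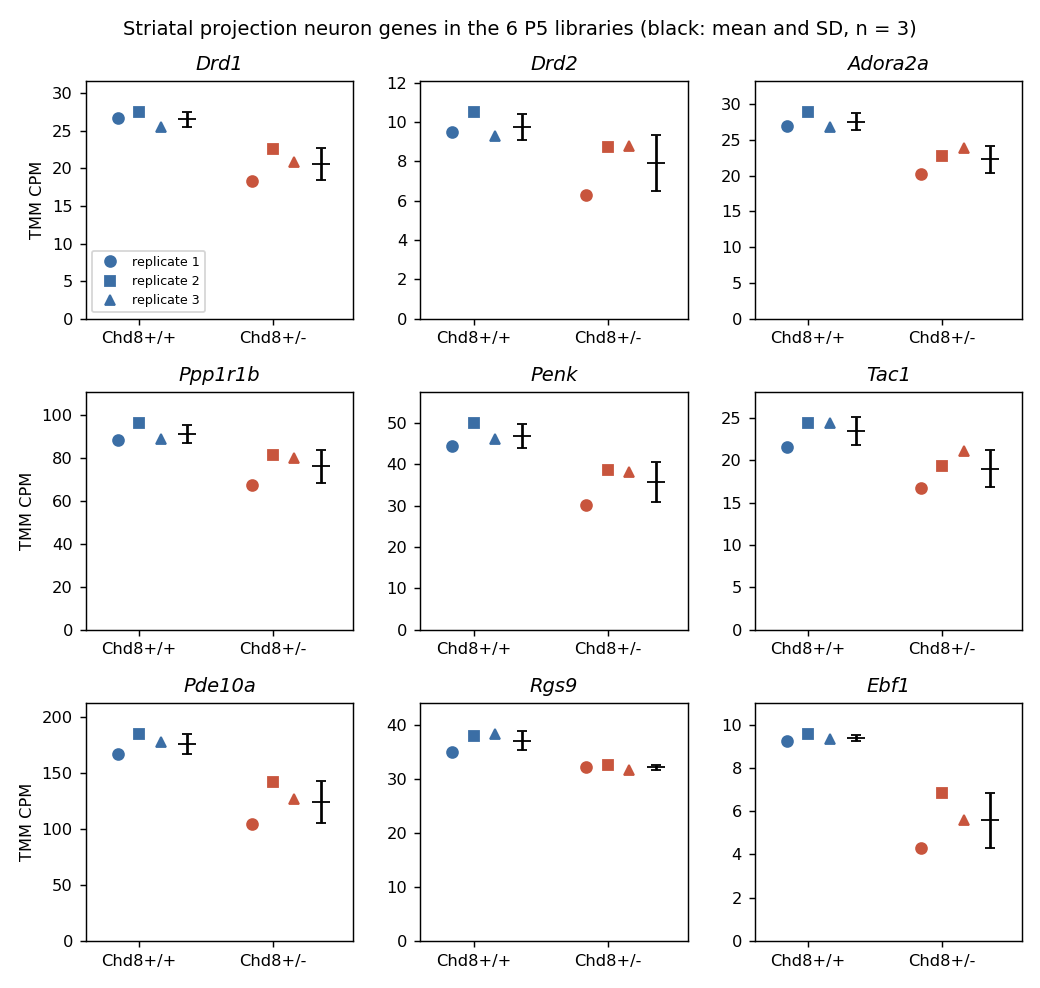
TMM CPM (vertical axes, from 0) of the 9 genes in the 3 Chd8+/+ (blue) and 3 Chd8+/- (red) P5 libraries, with the symbol giving the replicate and the black mark the mean and SD. In each panel the red points lie below the blue points, and the red circle (replicate 1) is the lowest in all panels but that of Rgs9.

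In the fit across all 18666 genes, edgeR called 0 of the 9 members between genotypes at P5 (adjusted p between 0.095 and 0.247), where 0.00536% of all genes were called. All 9 had an unadjusted p under 0.05 with a lower level, as did 9.77% of all genes. The tool and the filter mattered for this count. edgeR called 8 of the 9 when every gene with at least 1 count in total was kept, and 3.18% of all genes then. DESeq2 called 8 of the 9, all but Drd2 (adjusted p = 0.16), while calling 3.55% of the genes it tested as lower, and limma-voom called 0 (smallest adjusted p 0.0896). DESeq2 without replicate 1 of Chd8+/- called 3 of the 7 members it tested, Drd1, Penk and Pde10a, all lower, where 1.28% of the genes it tested were called lower. The same was asked of E12.5, where edgeR called 0 members (adjusted p between 0.945 and 0.996) against 0.00553% of all genes. No member had an unadjusted p under 0.05, whereas 932 of the 18081 genes tested did. DESeq2 called 0 members and 5 of the 13419 genes it tested, but gave no adjusted p for Drd1, Drd2 and Ppp1r1b. With limma-voom 0 members were called, and 1 of the 18081 genes tested.

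The members were also compared library by library at P5. For each gene, the log2 level in a library was set against the mean of the 6 P5 libraries, and these deviations were averaged over the 9 members. The mean deviation was 0.14, 0.25 and 0.18 in the Chd8+/+ libraries and -0.39, -0.07 and -0.12 in the Chd8+/- libraries. Replicate 2 was the highest Chd8+/+ library and held the highest level of 7 of the 9 members. Replicate 1 was the lowest Chd8+/- library and held the lowest level of 8 of the 9, the exception being Rgs9, lowest in replicate 3. Lower without overlap and lowest in that library was a pattern of 7.88% of all genes tested. Within the Chd8+/- group alone, replicate 1 stood -0.20 below the group's mean on the log2 scale, with 8 of the 9 members below their own mean, while replicates 2 and 3 stood at 0.12 and 0.07. Within Chd8+/+, replicate 2 had 0 of the 9 members below their group mean and replicate 1 had 8.

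Without replicate 1, the mean of the other Chd8+/- libraries was 66.4% of the Chd8+/+ mean for Ebf1, 76.2% for Pde10a, 81.8% for Drd1, 82.02% for Penk and 84.7% for Adora2a. For Tac1 it was 86.1%, for Rgs9 86.7%, for Ppp1r1b 88.3% and for Drd2 89.8%. The median log2 difference of the 9 members moved from -0.30 with all libraries to -0.24 without replicate 1.

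Ratios were computed for 6 pairs of members at each stage, and those at P5 are given. The log2 ratio of Drd1 to Drd2 ran from 1.22 to 1.51 over the 6 P5 libraries, and that of Drd1 to Adora2a from -0.19 to -0.01. Replicate 1 of Chd8+/- held 69.0% of the Chd8+/+ mean of Drd1. The ratio of Tac1 to Penk, the peptides of the separate pathways, ran from -1.04 to -0.84. The ratio of Rgs9 to Ppp1r1b ran from -1.34 to -1.06. The ratio of Pde10a to Ppp1r1b was 0.95 ± 0.04 in Chd8+/+ and 0.70 ± 0.09 in Chd8+/- (SD, n = 3), and that of Ebf1 to Drd1 was -1.48 ± 0.04 and -1.86 ± 0.17. Because the members were chosen for how their levels moved together, the ratios are a description and nothing is read from them.

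**Figure D2:**
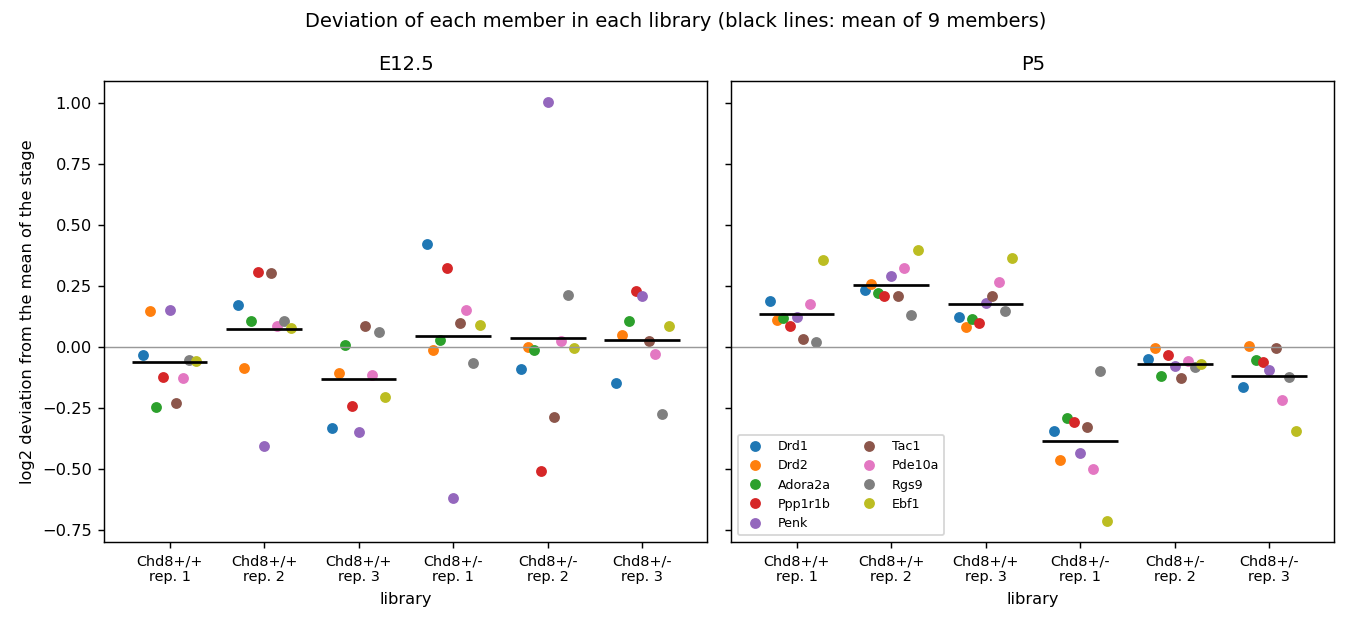
Deviation of each member (coloured points) from its mean over the 6 libraries of a stage, on the log2 scale, with the mean over the 9 members as a black line per library. At P5 the means run from 0.25 in Chd8+/+ replicate 2 to -0.39 in Chd8+/- replicate 1, where single members run from -0.71 (Ebf1) to -0.10 (Rgs9), and at E12.5 the points lie on both sides of 0 in every library.

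At E12.5 the mean deviation of a library lay between -0.13 and 0.08. Of the 9 members, 7, 2 and 6 were below their stage mean in the Chd8+/+ libraries and 3, 5 and 3 in the Chd8+/- libraries, so every library held members on both sides. No member had groups that did not overlap, where 11.3% of all genes tested did so in 1 direction or the other. Ebf1 was at 43.8, 48.0 and 39.4 CPM in Chd8+/+ and 48.5, 45.4 and 48.4 in Chd8+/-, and Pde10a at 35.1, 40.8 and 35.5 against 42.6, 39.1 and 37.6. The groups of both genes overlapped, with log2 differences of 0.12 ± 0.07 and 0.10 ± 0.08. Penk was at 2.44, 1.57 and 1.65 CPM against 1.32, 4.60 and 2.54. A single library, Chd8+/- replicate 2, gave its log2 difference of 0.58 ± 0.38, and without that library the value was 0.05. Of the other 6 members, Drd1 lay below 0.5 CPM in every library (9 to 19 reads), Drd2 below 1, Ppp1r1b below 2 and Tac1, Adora2a and Rgs9 between 2.74 and 6.09, with log2 differences from -0.12 (Tac1) to 0.22 (Drd1).

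**Figure D3:**
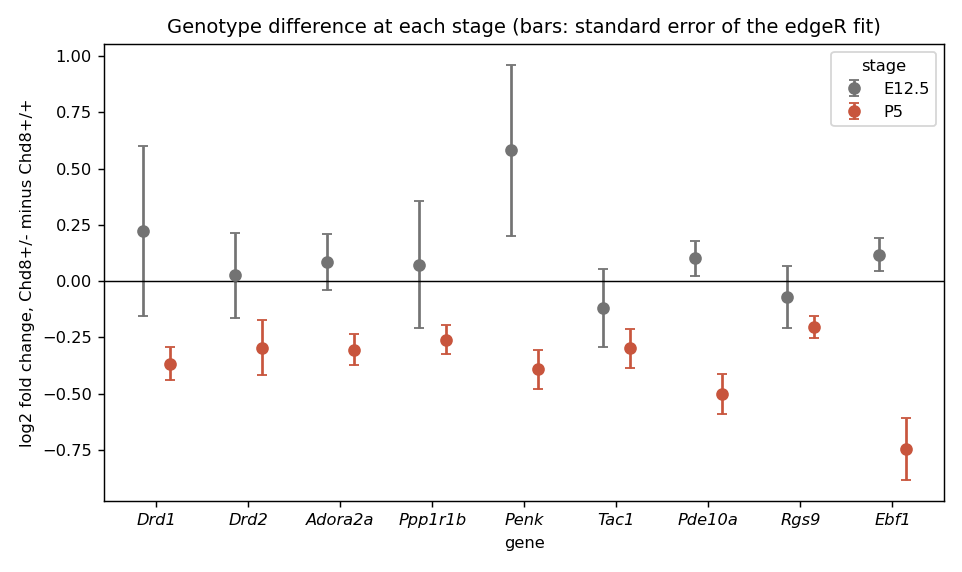
Fitted log2 difference of Chd8+/- from Chd8+/+ (vertical axis) for each gene at E12.5 (grey) and P5 (red), with the standard error of the edgeR fit. The P5 values run from -0.75 (Ebf1) to -0.20 (Rgs9), and the E12.5 values from -0.12 (Tac1) to 0.58 (Penk), with the widest error bars for Drd1 and Penk.

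Whether the genotype difference itself changed between the stages was asked with the interaction term of the 12-library model. The P5 libraries that chose the members enter this term, so it too is a description. All 9 terms were below 0, from -0.99 ± 0.38 for Penk to -0.15 ± 0.13 for Rgs9. When each library was left out in turn, the term ran from -1.28 to -0.46 for Penk. It ran from -0.80 to -0.24 for Drd1 and from -1.05 to -0.72 for Ebf1. edgeR called 0 of the 9 terms (adjusted p between 0.362 and 0.742) and 0% of all genes, while 4 of the 9 had an unadjusted p under 0.05, and 6.87% of all genes had such a p with a term below 0. DESeq2 called 2 of the 4 members to which it gave an adjusted p, Pde10a (-0.62, adjusted p = 0.015) and Ebf1 (-0.89, adjusted p = 0.00025), among 0.0929% of the genes it tested. edgeR without replicate 2 of P5 Chd8+/- called Ebf1 (adjusted p = 0.0439), among 0.00997% of all genes.

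Between the stages 8 members rose and 1, Ebf1, fell, in the average over genotypes (edgeR, adjusted p at most 1.18e-11, n = 6 libraries per stage). Most genes differed between the stages, with 43.7% of all genes called higher at P5 and 44.2% called lower, so the calls say little about these genes and the sizes are given. Levels per kilobase of exon are FPKM on the TMM scale of all 12 libraries. Drd1 went from 0.0872 FPKM on average at E12.5 to 6.78 at P5, a log2 rise of 6.28 ± 0.12, and Ppp1r1b from 0.448 to 29.0 (6.02 ± 0.12). Penk rose by 4.17 ± 0.18 and Drd2 by 3.42 ± 0.11. Rgs9 (2.76 ± 0.07), Tac1 (2.67 ± 0.10), Adora2a (2.44 ± 0.06) and Pde10a (1.99 ± 0.07) rose less. Ebf1 went the other way, from 4.61 to 0.778 FPKM, a log2 change of -2.61 ± 0.08. The age, the count table and the number of hemispheres taken all differ between the stages and cannot be told apart.

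The order of the levels changed with age. At E12.5 Ebf1 was the highest member per kilobase (3.99 to 4.91 FPKM over the 6 libraries), followed by Pde10a (2.76 to 3.34) and Adora2a (1.53 to 1.97), and these 3 ranges did not overlap each other. Penk, next by its mean, ran from 0.798 to 2.78 and so overlapped the ranges of both Pde10a and Adora2a. Adora2a, Penk, Tac1 and Rgs9 followed with ranges that overlapped from each to the next. Drd2 and Ppp1r1b lay below them with overlapping ranges, and Drd1 was the lowest (0.0534 to 0.138). At P5 Ppp1r1b (23.1 to 33.6 FPKM) and Penk (18.5 to 31.3) were the highest and overlapped, and Pde10a (8.34 to 14.99) and Adora2a (8.01 to 11.7) came next and overlapped. The neighbours Drd1, Tac1, Drd2 and Rgs9 overlapped from each to the next, between 4.08 and 7.97 FPKM. Ebf1 was the lowest at P5, at 0.442 to 1.00 FPKM.

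**Figure D4:**
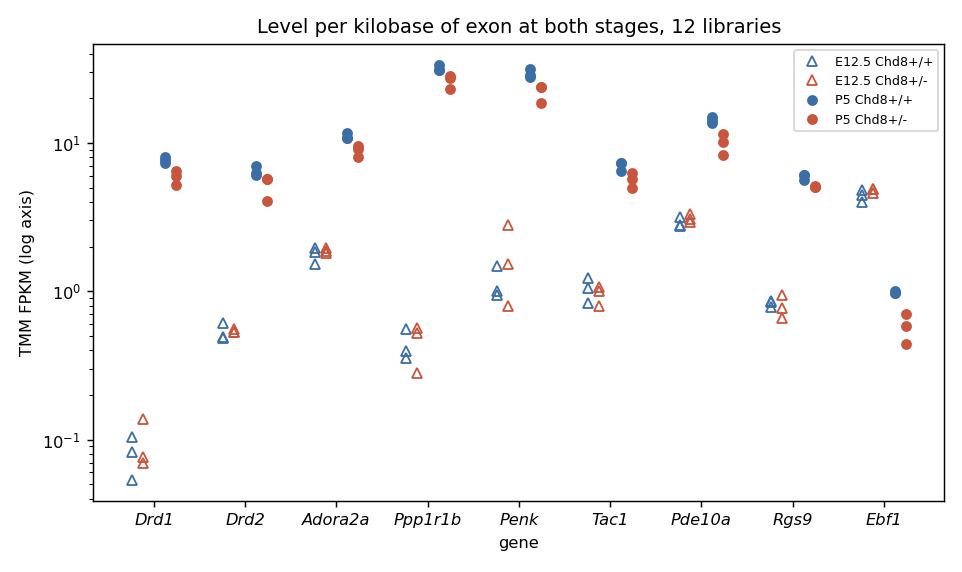
Level of each gene per kilobase of exon (TMM FPKM, log axis) in the 12 libraries, with open triangles for E12.5, filled circles for P5, blue for Chd8+/+ and red for Chd8+/-. All genes but Ebf1 lie higher at P5, and Ebf1 goes from the highest at E12.5 to the lowest at P5.

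A list of 34 other genes of the striatum and its precursors was compared, of which 33 were matched and tested at P5. This list and those of other cell types below were chosen with earlier results of these data known. Their values are therefore a description and give no separate support. Of the 33, 29 had a log2 difference below 0 and 4 above 0, with a median of -0.15, while the median of all genes was 0.00 and 49.6% of them were below 0. The 9 members had a median of -0.30. When each P5 library was left out in turn, the median of the other striatal genes ran from -0.24 to -0.09. That of the members ran from -0.37 to -0.24. Every Chd8+/- library was below every Chd8+/+ library for 16 of the 33, against 12.2% of all genes, and the reverse held for 1, Chrm4. Replicate 1 of Chd8+/- held the lowest level of 26 of them and of 25.1% of all genes. edgeR called 0 of the 33, although 17 had an unadjusted p under 0.05, all lower (9.77% of all genes), and DESeq2 called 9, where 3.55% of the genes it tested were called lower.

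Among the transcription factors of the striatum and lateral ganglionic eminence, 12 of 12 had a value below 0 and 7 had no overlap (12.2% of all genes were lower without overlap), with the smallest p for Meis2 (-0.26 ± 0.05), Bcl11b (-0.28 ± 0.07) and Foxp2 (-0.43 ± 0.11), none of which edgeR called. Foxp2, a factor of striatal and deep cortical neurons, was at 38.7, 38.4 and 36.9 CPM against 22.2, 31.8 and 30.7, the same order among the Chd8+/- libraries as Pde10a and Ebf1. The other indirect pathway genes gave 4 of 4 below 0, among them Grik3, a kainate receptor subunit (-0.24 ± 0.04), Six3, a forebrain homeobox factor (-0.57 ± 0.23), and the orphan receptor Gpr6 (-0.27 ± 0.11). For the other direct pathway genes 4 of 5 were below 0, namely Slc35d3 (-0.58 ± 0.16), Isl1 (-0.48 ± 0.23), Pdyn (-0.15 ± 0.08) and Eya1 (-0.09 ± 0.08), and the muscarinic receptor Chrm4 was at 0.06 ± 0.06. The signalling genes were mixed, with 9 of 12 below 0. The G protein subunit Gnal (-0.14 ± 0.04) and the phosphodiesterase Pde1b (-0.15 ± 0.04) were among the 3 with the smallest p, while Rasd2 (0.04 ± 0.06), Rasgrp2 (0.01 ± 0.04) and Ptpn5 (0.08 ± 0.04) were near or above 0.

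At E12.5 the same lists gave 17 values below 0 and 15 above 0 among 32 tested, with a median of 0.00, and edgeR and DESeq2 called 0. DESeq2 gave no adjusted p at E12.5 for Pdyn, Chrm4, Slc35d3, Rasd2, Scn4b and Oprm1. Of the 32 tested, 3 had an unadjusted p under 0.05, all lower, as did 2.84% of all genes tested at that stage. From E12.5 to P5, 19 of 33 were called higher and 12 lower, where 43.7% and 44.2% of all genes were. The largest rises among these were in Rasd2 (6.09), Gpr6 (5.55), Arpp21 (5.42), Gnal (5.17) and Pdyn (5.12). Of the other direct pathway genes, Chrm4 (4.19) and Slc35d3 (3.32) rose as well, while Isl1 (-2.68) and Eya1 (-0.75) fell. The homeobox genes Gsx2 (-4.26), Dlx2 (-2.63) and Six3 (-2.03) fell, as did the zinc finger genes Zfp503 (-1.93) and Sp9 (-0.99).

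Genes of some other cell types were also lower without overlap at P5, as were 12.2% of all genes. Of the striatal cholinergic neuron genes, the choline transporter Slc5a7 was at 4.33, 4.2 and 4.65 CPM in Chd8+/+ and 2.19, 4.18 and 3.43 in Chd8+/-, and the vesicular acetylcholine transporter Slc18a3 at 2.16, 1.89 and 1.61 against 0.834, 1.37 and 1.3. Both were lower without overlap and lowest in replicate 1 of Chd8+/-, with log2 differences of -0.42 ± 0.19 and -0.69 ± 0.20, while Chat (-0.92 ± 0.43) overlapped between the groups. Choroid plexus genes (Ttr, Folr1, Clic6, Kl, Aqp1 and Otx2) summed to 434 to 561 CPM against 319 to 377, and 6 of 6 were lower without overlap, with a median of -0.71. DESeq2 called 4 of these (3.55% of the genes it tested were called lower) and gave no adjusted p for Folr1 and Otx2. Only 1 of the 6 choroid plexus genes, Otx2, was lowest in replicate 1, so their order among the Chd8+/- libraries was not that of the members. The dopamine neuron genes Th, Slc6a3, Ddc and Slc18a2 summed to 23.2 to 25.5 CPM against 20.1 to 21.5. Cortical excitatory genes had a median of 0.06, with 2 of 8 below 0, as were 49.6% of all genes. Among them, Slc17a7 was at 398, 430 and 400 CPM in Chd8+/+ and at 456, 413 and 434 in Chd8+/-. Neurod6 of the same list went the other way, at 224, 245 and 230 CPM against 219, 210 and 205, lower without overlap (-0.14 ± 0.04), and was the only one of the 8 that DESeq2 called (adjusted p = 0.0488). The part of these cell types in the members' levels was not tested.

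Among GABAergic genes, Gad1 (-0.24 ± 0.07), Gad2 (-0.28 ± 0.12) and Nkx2-1 (-0.54 ± 0.13) had values below 0 with an unadjusted p under 0.05, none called by edgeR and Gad1 called by DESeq2 (adjusted p = 0.0104). Sp8 was at -0.23 ± 0.11, and the cortical interneuron genes Lhx6 (-0.01 ± 0.05), Sst (-0.01 ± 0.04) and Npy (0.03 ± 0.05) were near 0. Medians were -0.11 for the endothelial and pericyte genes, -0.04 for microglia (0 of 4 without overlap), -0.01 for astrocytes, 0.03 for the oligodendrocyte lineage and 0.14 for meninges. Red blood cell genes had a median of -0.25 over the 3 tested.

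**Figure D5:**
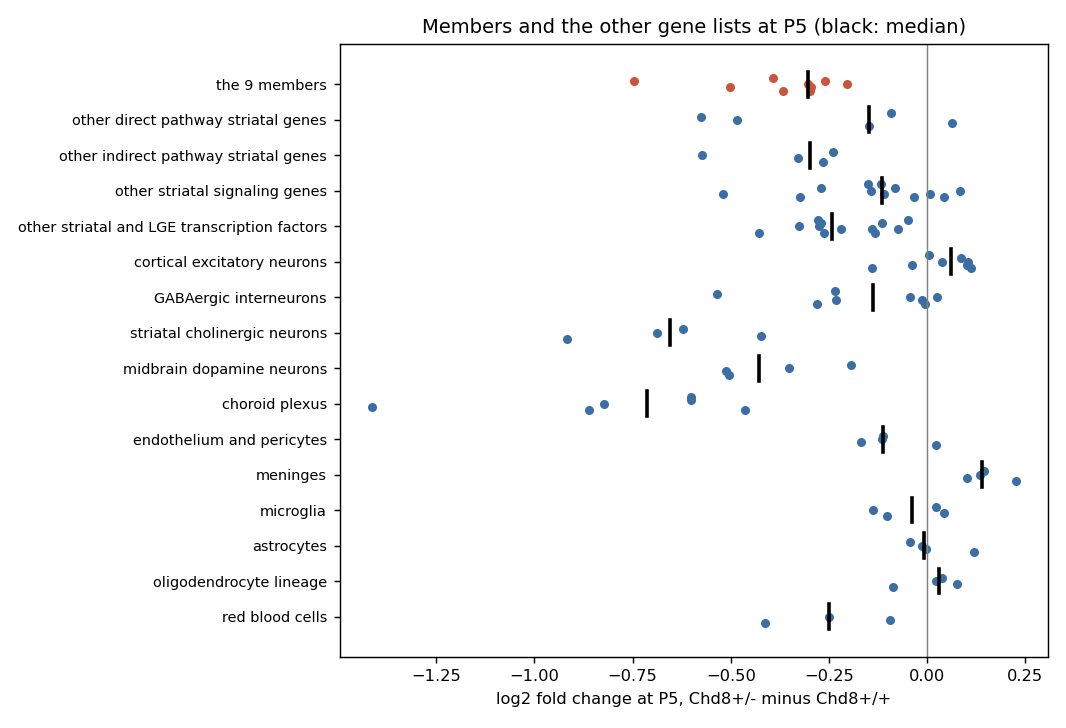
Log2 difference of Chd8+/- from Chd8+/+ at P5 for each gene (points) of the 9 members (red) and of each other list (blue), with the median as a black bar; LGE stands for lateral ganglionic eminence. The members' median is -0.30, that of choroid plexus genes -0.71 and that of cortical excitatory genes 0.06.

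The genes whose P5 pattern was most like the mean of the members were found by Pearson's r over the 6 P5 libraries, among 4838 other genes with a mean of at least 1 CPM and a spread no smaller than that of Rgs9. This is a description, since the 6 points share the genotypes and the libraries. The 10 closest were Enpp6 (r = 0.996), Neto1 (0.995), Sik2 (0.994), Ctso (0.992), Notch1 (0.991), Dclk3 (0.989), Gria2 (0.989), Nipbl (0.987), Lrrc9 (0.986) and Strip2 (0.986). Neto1, an auxiliary subunit of kainate receptors, ran at 78.0, 81.9 and 80.1 CPM in Chd8+/+ and 61.9, 69.7 and 68.8 in Chd8+/-. Gria2, an AMPA receptor subunit used by neurons of the whole cortex, ran at 516, 520 and 523 against 407, 463 and 459. Of the genes compared, 7.42% had an r over 0.9, and the members themselves ran from 0.850 (Rgs9) to 0.997 (Penk) against their own mean, which they are part of.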

How the data were processed

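RNA-seq libraries of cortex from 4 groups were used, as whole-number read counts per Ensembl gene that the authors deposited, 1 table per stage, not normalized. The submitters' processing notes name Trim Galore 0.4.1, TopHat2 2.1.0, featureCounts 1.5.0 and the builds mm10 and GRCm38.p4. Per the file headers the P5 table was counted in pairs on Ensembl annotation with no strand option, and the E12.5 command is not given in the sources used here. Gene coordinates and merged exon lengths (another unit, in bases) are those deposited in the tables. The 2 runs of each library were summed. Genes were filtered with filterByExpr, scaled by TMM and tested with edgeR 4.0.16 (quasi-likelihood, R 4.3.3), within a stage for genotype and over 12 libraries for stage and interaction, with Benjamini-Hochberg adjustment over all genes tested and a threshold of 0.05. A printed SE is the log2 difference over the root of the F statistic. Deviations per library are of log2(CPM + 0.25). The edgeR genotype and stage fits were tested on simulated data. DESeq2 1.42.0, limma 3.58.1 (voom), other scalings and filters, each run alone, length offsets, a replicate block and the leaving out of each library were alternatives.

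The members and the lists were chosen with earlier results of these data known. The rule for named genes took all members, Chd8, the first 4 markers of each list (given as sums, or as levels where a result turns on them), for each other striatal list up to 3 genes with the smallest P5 p and 3 with the largest stage change, and the 10 genes most like the members; Dlx1, Eya1, Rasgrp2, Ptpn5, Gad1, Gad2, Sp8, Aqp1 and Otx2 were added after their values were seen. Some genes that the rule names are not reported here. Same-numbered libraries did not deviate together in every pair, so the numbers were not taken as pairs. Promoter windows came from RefSeq.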

Additional observations from a re-analysis of the deposited data

How the results depend on the processing

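The P5 count of members called, the interaction count and the E12.5 signs depended on the processing. The P5 count was 0 of 9 by edgeR, 8 by DESeq2 (5.22% of the genes it tested were called), 8 when edgeR kept every gene with at least 1 count in total (3.18%), 3 by DESeq2 without P5 Chd8+/- replicate 1 (1.5%; an alternative chosen after seeing the data), 3 at an adjusted p under 0.1 (0.729%), and 0 to 4 when each library was left out (4 without P5 Chd8+/- replicate 2, namely Drd1, Penk, Pde10a and Ebf1, and 1.72% of all genes). With the replicate number as a block, 1 member was called, Pde10a (0.0214% of all genes). The same-numbered libraries correlated at 0.255, 0.115 and 0.0289 at P5 and at -0.311, -0.144 and -0.162 at E12.5. With 3 libraries per group, these values cannot show whether the numbers mark pairs. The direction of all 9 members at P5 held under every alternative run. The interaction count was 0 by edgeR, 2 by DESeq2 (0.0929% of the genes it tested), 2 with every gene of at least 1 count (0.0519%), and 0 to 1 on leaving out each library; its median over members was -0.30 with the first sequencing run only and from -0.54 to -0.33 on leaving out each library, and Rgs9 ran from -0.25 to 0.0075. The stage median was 2.53 with offsets for gene length, against 2.76. A stage effect has no blocked form, since a number is nested in a stage.

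At E12.5, with the first run only they reversed for Drd2 (-0.025), Adora2a (-0.074) and Rgs9 (0.066). On leaving out each library, Drd1 ran from -0.12 to 0.45, Drd2 from -0.033 to 0.14, Adora2a from -0.018 to 0.17, Ppp1r1b from -0.10 to 0.33, Tac1 from -0.26 to 0.020 and Rgs9 from -0.22 to 0.046, and the median of the members from 0.0029 to 0.17. Apart from fewer samples on leaving out a library, the causes were not tested. With 9 to 19 reads per E12.5 library, Drd1 could not be fitted under the filter of 10 counts in every library or in single runs.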
